A study of Mus musculus with 16 samples.

Results

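Gene expression was compared between 2 mouse mammary tumour cell lines that had both been kept in TGFb for 4 days. The lines were 631, which carries wild-type Pygo2 (+/+), and 828, in which both Pygo2 alleles carry the A342E change. The comparison uses 4 of the 16 libraries of the series, 2 from each line, chosen by their labels as the TGFb-treated libraries of the 4-day experiment. Another 4 libraries, the untreated cells of the same 4-day experiment (2 from each line), gave the line difference without TGFb. The remaining 8 libraries are a 3-day Wnt3a experiment with its own untreated cells. They entered the scaling, the choice of genes tested and the estimate of the spread. Its untreated cells also gave a line difference for chromosome 13. All the cells come from tumours of MMTV-PyMT mice on the FVB/N background, in which a viral promoter active in mammary epithelium drives polyoma middle T, so controls and mutant cells share that oncogene. The medium was DMEM containing serum, and TGFb was given at 2 ng/ml with a medium change every second day. The labels name 1 line per genotype, so the Pygo2 change and any other difference between the lines cannot be told apart. The series describes its libraries as biological duplicates without saying what separates them. The p-values measure the spread between such duplicates of a line, pooled over both experiments.

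Pygo2 is a nuclear adaptor of Wnt signalling. Its PHD finger binds Bcl9, which bridges it to beta-catenin, and also binds histone H3 methylated on lysine 4, and the A342E change lies in that finger and was made to disturb the histone contact. TGFb signals through receptor kinases and Smad proteins. In mammary epithelial cells it slows the cell cycle and can drive the epithelial-to-mesenchymal transition, in which cells lose junctions and epithelial transcription factors and take up a matrix-producing, migratory state. The 2 lines were compared at the end of that treatment.

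The libraries held 21423285 to 24105298 counts in the 4 TGFb-treated samples. Levels are given as CPM, each library's counts scaled to its total multiplied by its TMM factor (0.9416 to 0.9875 in these 4 libraries). Log2 fold changes are the A342E line minus the wild-type line, with a standard error (SE) after the ± sign. A gene passed where edgeR's quasi-likelihood test gave a Benjamini-Hochberg adjusted p under 0.05 over the 13172 genes tested. Every pair of values below gives replicate 1 and then replicate 2 of a line (n = 2). Replicate pairs of the 3-day experiment, which entered the estimate of the spread, differed with a standard deviation of 0.449 to 0.919 (log2 ratio over genes). Replicates of the TGFb-treated A342E line differed less, with a standard deviation of 0.244, and those of the wild-type line with 0.432. In the wild-type pair that ratio followed the GC content of the transcripts (Spearman's rho -0.716 over genes) and in the A342E pair it did not (-0.000706), and the part of this in single results was not tested beyond the GC-corrected fit. Igfbp5 alone took 4.14% and 4.07% of the counts in the TGFb-treated A342E libraries and 0.176% and 0.159% in the wild-type ones. Of 10 mammary epithelial markers, 8 reached 1 CPM in both lines under TGFb. Their summed level was 3626 to 4798 CPM in the wild-type line, where Krt19 was at 0, and 2026 to 2032 CPM in the A342E line. Of the 8, Krt7, Krt8, Krt14, Krt18 and Cldn3 had the lower mean in the A342E line. Cdh1 (612 in the wild-type against 711 CPM), Epcam (292 against 403 CPM) and Cldn7 (19.2 against 47.1 CPM) had the higher mean there. Only Krt7, Krt8 and Cldn7 passed. Immune markers summed to 30.6 to 36.5 CPM in the wild-type and 22.7 to 24 CPM in the A342E line, with Adgre1 and Itgam at 0 in the first and Ptprc at 0 in the second.

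Pygo2 itself, whose A342E change is a single amino acid substitution, had 62.1 and 67.7 CPM in the wild-type and 53.8 and 51.6 CPM in the A342E line. Its level did not pass (log2 fold change -0.30 ± 0.16, adjusted p = 0.201), and the count says nothing about the allele, so it checks no label.

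The 2 lines differed widely after TGFb. Of 13172 genes tested, 3916 passed (29.7%), 2289 higher in the A342E line (17.4%) and 1627 lower (12.4%). Of the passing genes, 3189 (81.4%) differed by at least 1 on the log2 scale and 836 (21.3%) by at least 4, of which 659 were higher and 177 lower. The median over all genes was -0.01. The count rested on the pooled spread: it was 2581 to 2707 with any of the 4 libraries left out (2600 and 2581 without A342E replicate 1 or 2), and 7042 where the fit used only the 8 libraries of the 4-day experiment. The 2 libraries of a line did not overlap those of the other in 10090 genes (76.6%), and this holds for all 144 passing genes named below, which were chosen partly for it.

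Most of these differences were present before TGFb as well. In untreated 4-day cells, 4583 genes passed between the lines (34.8%), in libraries that the TGFb comparison does not use. Of the 2289 genes higher in the A342E line under TGFb, 1583 (69.2%) were also higher untreated, and these are 63.2% of the 2506 genes higher untreated. Of the 1627 lower genes, 1025 (63%) were also lower untreated, 49.4% of the 2077 genes lower there. Opposite calls were few: 100 genes were higher under TGFb and lower untreated, and 39 were lower under TGFb and higher untreated. The difference itself, tested as the A342E minus the wild-type response to TGFb, passed for 1163 genes (8.83%), of which 764 also passed under TGFb. Same-numbered libraries of a line deviated together across the 2 conditions (correlation 0.563 in the wild-type and 0.202 in the A342E line), and with a replicate block within each line 1784 genes passed, 1162 of the 1163 among them.

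**Figure D1:**
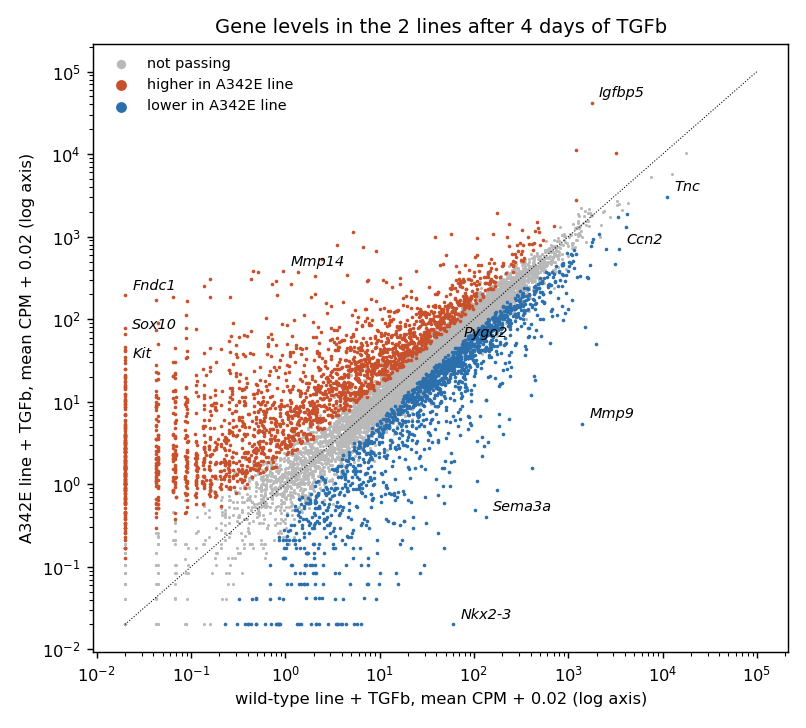
Mean CPM of each gene tested after 4 days of TGFb in the wild-type line (x axis) and the A342E line (y axis), both log axes with 0.02 CPM added. Points in red and blue passed as higher (2289) and lower (1627) in the A342E line and grey points did not pass, and the column of red points at the left edge holds genes with no count in the wild-type line.

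Some genes were read in 1 line only. Under TGFb 112 genes had at least 5 CPM in the A342E line and at most 3 counts over both wild-type libraries, and 13 genes showed the reverse. In 53 of the first kind and 2 of the second the same held in untreated cells. One of them was Fndc1, which encodes a fibronectin type III protein, at 0 CPM in both libraries of the wild-type and 191 and 196 CPM in the A342E line (at least 2752-fold, adjusted p = 2.14e-06; a group with no count is set to 3 counts). Sox10, a neural crest transcription factor also found in mammary stem-like cells, had 0 CPM in both libraries of the wild-type and 67.5 and 63.2 CPM in the A342E line (at least 929-fold, adjusted p = 1.78e-05). Emid1, an EMI-domain matrix protein, had 0 CPM in both libraries of the wild-type and 47.7 and 45.2 CPM in the A342E line (at least 659.8-fold, adjusted p = 2.02e-06). Each of these was at 0 in both wild-type libraries with and without TGFb. Ikzf1, the lymphoid transcription factor Ikaros, reached 42.1 and 41.8 CPM in the A342E line and was 0 in both wild-type libraries (at least 596-fold, adjusted p = 2.51e-06). Of 5 immune markers tested, 1 was higher and 1 lower in the A342E line. Lyz2 had the higher mean there (0.047 CPM in the wild-type against 3.57 CPM), and Ptprc was at 0. Whether immune cells had a part in the Ikzf1 level was not tested. Kit, a receptor kinase of luminal progenitors, had 0 CPM in both libraries of the wild-type and 28.6 and 30.2 CPM in the A342E line (at least 418-fold, adjusted p = 6.45e-07), and 409.8 and 434 CPM in untreated A342E cells.

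In the other direction, Nkx2-3, a homeobox factor, had 56.1 and 64.6 CPM in the wild-type and 0 CPM in both libraries of the A342E line (at least 949.6-fold, adjusted p = 1.24e-05). Sema3a, a secreted semaphorin that repels axons and endothelial cells, had 143 and 123 CPM in the wild-type and 0.339 and 0.427 CPM in the A342E line (log2 fold change -8.42 ± 0.48, adjusted p = 4.14e-07). Padi4, which converts arginine to citrulline in histones, had 22 and 31.1 CPM in the wild-type and 0.0424 and 0.0853 CPM in the A342E line (419-fold with a 95% counting interval of 143 to 2034, adjusted p = 4.93e-06 in favour of the wild-type line). Zfpm2, a cofactor of GATA factors, had 48.5 and 47 CPM in the wild-type and 0.17 and 0.128 CPM in the A342E line (log2 fold change -8.28 ± 0.72, adjusted p = 5.58e-06). All 4 genes were also lower in untreated A342E cells.

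Genes that pass in 1 direction together are shown by list, 39 lists of genes by function with the number of tested members. The share of a list is read against 17.4% higher and 12.4% lower over all genes. Untreated counts of a list are read against 19% higher and 15.8% lower. For the response difference the shares over all genes were 5.04% in favour of the A342E line and 3.79% against it.

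**Figure D2:**
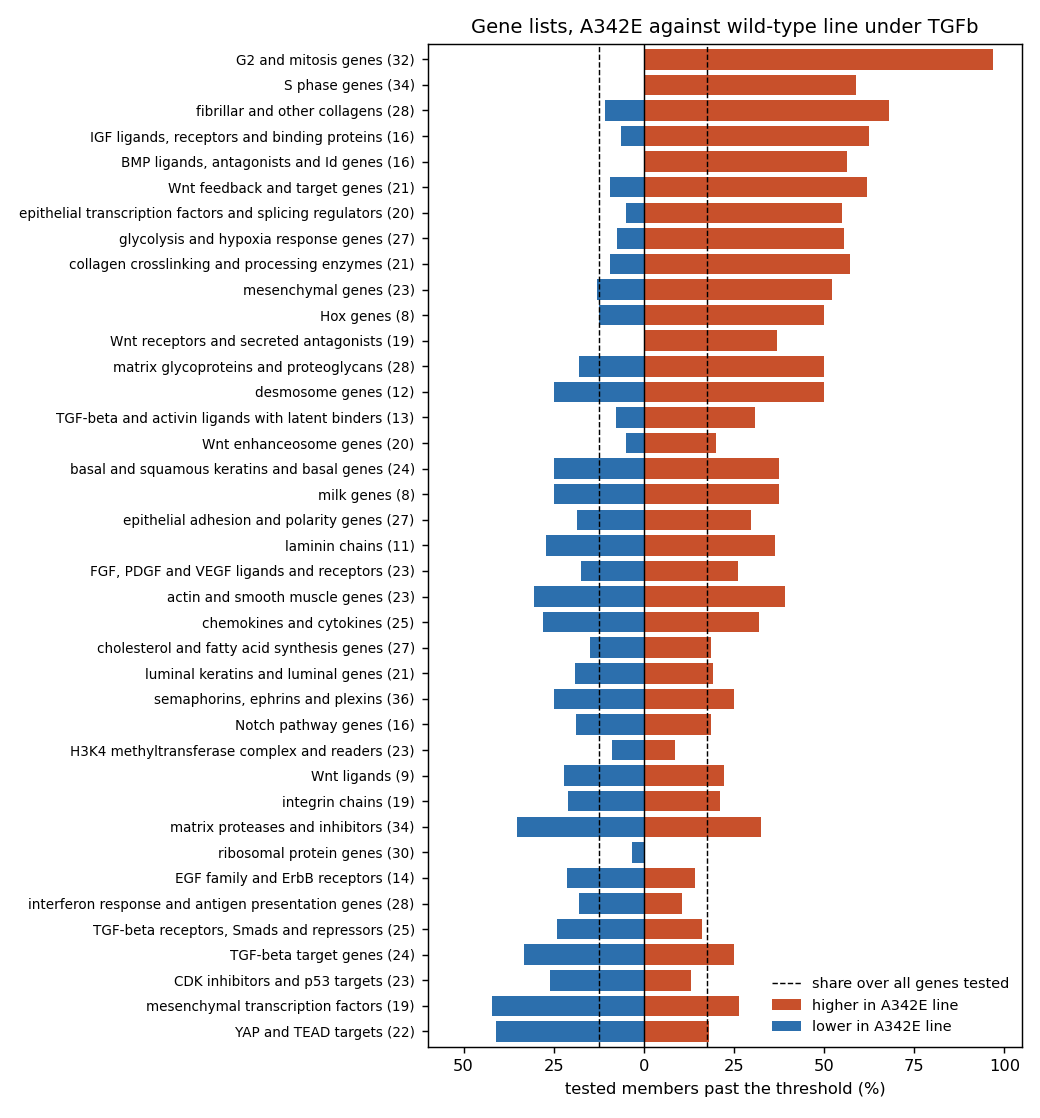
Share of the tested members of each gene list (number in brackets) that passed as higher (red, to the right) or lower (blue, to the left) in the A342E line under TGFb, with dashed lines at the shares over all genes tested (17.4% higher, 12.4% lower). G2 and mitosis genes stand at the top with 31 of 32 higher, and YAP and TEAD targets at the bottom with 4 higher and 9 lower of 22.

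G2 and mitosis genes had the highest share of members in 1 direction among the 39 lists. Under TGFb, 31 of 32 tested G2 and mitosis genes were higher in the A342E line and none lower, with a median log2 fold change of 2.21 (all genes -0.01). Of 34 S phase genes, 20 were higher and none lower (median 0.86). In untreated cells the same lists pointed the other way: 9 of the 32 G2 and mitosis genes were lower and none higher (median -0.57), and 16 of the 34 S phase genes were lower and none higher (median -0.67). Over all genes 15.8% were lower and 19% higher untreated. The response difference passed in favour of the A342E line for 31 G2 and mitosis genes and 23 S phase genes, against 5.04% of all genes. In bulk RNA a different share of cycling cells and a different amount of RNA per cell cannot be told apart.

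Aurkb, the kinase of the chromosomal passenger complex, had 2.9 and 2.74 CPM in the wild-type and 18.7 and 18.5 CPM in the A342E line after TGFb (log2 fold change 2.72 ± 0.24, adjusted p = 6.65e-06). Untreated, it stood at 68.3 and 73.3 CPM in the wild-type and 51.6 and 45.3 CPM in the A342E line, with both A342E values the lower ones. Bub1b, a spindle checkpoint kinase, had 8.36 and 6.2 CPM in the wild-type and 42.8 and 42.5 CPM in the A342E line (log2 fold change 2.55 ± 0.24, adjusted p = 1.06e-05), and 116 and 112 against 99 and 96.2 CPM without TGFb. Cenpa, the histone variant that marks centromeres, had 6.44 and 5.7 CPM in the wild-type and 31 and 32.1 CPM in the A342E line (log2 fold change 2.38 ± 0.24, adjusted p = 1.63e-05), and 93.3 and 95.4 against 72.5 and 68.2 CPM untreated. Kif20a, a kinesin of late mitosis, had 17.1 and 14.1 CPM in the wild-type and 79.7 and 81.6 CPM in the A342E line (log2 fold change 2.37 ± 0.23, adjusted p = 1.04e-05). In all 4 genes both A342E libraries lay above both wild-type libraries under TGFb, and both lay below them untreated, where none of the 4 passed (edgeR adjusted p from 0.075 to 0.482). The member that did not pass was Cks2, a small CDK-binding protein, a chromosome 13 gene named here after its value was seen (-0.68 ± 0.34, adjusted p = 0.17).

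Among S phase genes, Mcm10, a replication initiation factor, had 1.87 and 1.44 CPM in the wild-type and 15.4 and 18.2 CPM in the A342E line (log2 fold change 3.35 ± 0.26, adjusted p = 2.34e-06). Cdc6, an origin licensing factor, had 2.75 and 2.65 CPM in the wild-type and 12.4 and 12.1 CPM in the A342E line (log2 fold change 2.18 ± 0.26, adjusted p = 6.16e-05). Clspn, an adaptor of the replication checkpoint, had 5.01 and 4.67 CPM in the wild-type and 23.5 and 24.2 CPM in the A342E line (log2 fold change 2.3 ± 0.24, adjusted p = 1.85e-05), and E2f8, an atypical E2F repressor, had 1.97 and 2.15 against 11.8 and 12.8 CPM (log2 fold change 2.58 ± 0.32, adjusted p = 7.23e-05). All 4 levels in the A342E line were below that line's own untreated values, which were 50.3 and 48.3 CPM for Mcm10 and 36 and 40.1 CPM for Cdc6. The count of G2 and mitosis genes was 29 to 31 with any library left out, and that of S phase genes 13 to 14.

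**Figure D3:**
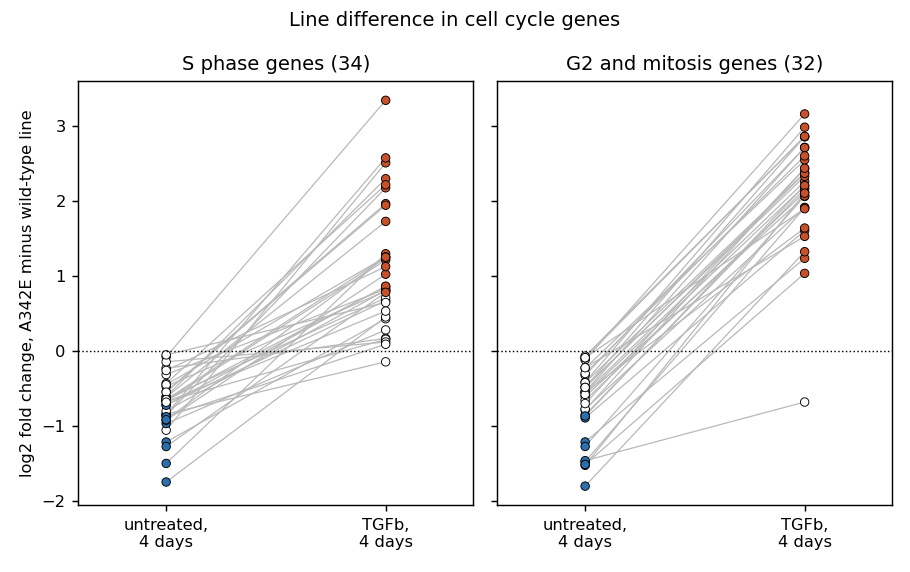
Log2 fold change of the A342E minus the wild-type line for each S phase gene (left, 34) and each G2 and mitosis gene (right, 32), in untreated cells and under TGFb, with 1 line per gene. Red and blue points passed as higher and lower and white points did not pass; the G2 and mitosis genes go from a median of -0.57 to 2.21.

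Promoters of 2 of these mitotic genes are shown because genes of this class are known to carry paired CCAAT boxes and a CHR element (letters TTTGAA), the site of the DREAM and MuvB complexes. The windows come from RefSeq (GRCm38.p6), run from 250 bases before to 50 after a RefSeq start of the gene, and were searched on both strands, with CCAAT and TTTGAA matches in capitals (ATTGG is CCAAT read on the other strand).
Bub1b promoter (chr2:118597961-118598260, plus strand): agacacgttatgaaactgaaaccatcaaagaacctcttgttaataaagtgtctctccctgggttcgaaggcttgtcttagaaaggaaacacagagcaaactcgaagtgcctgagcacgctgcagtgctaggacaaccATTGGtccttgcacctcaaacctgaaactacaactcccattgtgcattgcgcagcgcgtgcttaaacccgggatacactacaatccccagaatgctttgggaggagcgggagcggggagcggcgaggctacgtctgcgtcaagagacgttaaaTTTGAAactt
Cenpa promoter (chr5:30666636-30666935, plus strand): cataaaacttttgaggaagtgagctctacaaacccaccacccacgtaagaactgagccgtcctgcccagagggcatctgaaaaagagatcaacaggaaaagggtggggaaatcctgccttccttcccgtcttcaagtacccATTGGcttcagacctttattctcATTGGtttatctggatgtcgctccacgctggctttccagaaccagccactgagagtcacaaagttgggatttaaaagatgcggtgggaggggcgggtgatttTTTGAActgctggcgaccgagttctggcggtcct
The Bub1b window held 1 CCAAT match, not a pair, and the Cenpa window held 2, with 1 TTTGAA match in each window. Of the 26 G2 and mitosis genes that had a window, 19 (73.1%) held at least 1 CCAAT and 18 (69.2%) at least 1 TTTGAA. Over all 32851 windows the shares were 37.4% and 17.9%. These are matches of letters, and none of the data measure binding there.

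CDK inhibitors and p53 targets, counted as 1 list, did not share the direction of the cycle genes. The count does not separate the inhibitors from the p53 targets. Of 23 CDK inhibitor and p53 target genes tested, 3 were higher and 6 lower (median -0.56). Cdkn2b, the p15 inhibitor and a classical TGFb target, had 212 and 212 CPM in the wild-type and 63.1 and 54 CPM in the A342E line (log2 fold change -1.86 ± 0.22, adjusted p = 5.04e-05). Cdkn2c, the p18 inhibitor, was the opposite at 1.97 and 2.69 CPM in the wild-type and 26.8 and 22.9 CPM in the A342E line (log2 fold change 3.41 ± 0.25, adjusted p = 1.85e-06). Mdm2, the ubiquitin ligase of p53, had 673 and 642 CPM in the wild-type and 251 and 271 CPM in the A342E line (log2 fold change -1.33 ± 0.27, adjusted p = 0.00231). Pmaip1, a pro-apoptotic BH3-only protein, had 126 and 119 CPM in the wild-type and 2.04 and 2.3 CPM in the A342E line (log2 fold change -5.82 ± 0.54, adjusted p = 8.46e-06), and it was lower in untreated A342E cells as well (27.5 and 22 against 0.0909 and 0.291 CPM). Ccnd1, which encodes cyclin D1, went with the wild-type line at 1242 and 1236 CPM in the wild-type and 327 and 322 CPM in the A342E line (log2 fold change -1.93 ± 0.30, adjusted p = 0.000398). With any library left out the lower count was 3 to 5.

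Epithelial transcription factors were more often higher than lower in the A342E line under TGFb. Of 20 tested epithelial transcription factors and splicing regulators, 11 were higher and 1 lower (median 1.11), beside 7 higher and 5 lower untreated (median 0.33). The response difference passed for 8, all in favour of the A342E line, against 5.04% of all genes. Elf5, the factor of the alveolar and luminal progenitor fate, had 0.295 and 0.449 CPM in the wild-type and 62.4 and 61.3 CPM in the A342E line (log2 fold change 7.35 ± 0.47, adjusted p = 7.3e-07). In untreated cells Elf5 had 4.74 and 4.15 against 390.5 and 397 CPM, so the values of both lines were lower with TGFb than without. Ehf, an epithelial ETS factor, had 0.443 and 0.269 CPM in the wild-type and 33.8 and 37.8 CPM in the A342E line (log2 fold change 6.64 ± 0.45, adjusted p = 1.08e-06), and 18.7 and 16 against 60.1 and 70.4 CPM untreated. Grhl1, a grainyhead factor of desmosome genes, had 1.62 and 1.26 CPM in the wild-type and 11.8 and 13.4 CPM in the A342E line (log2 fold change 3.13 ± 0.33, adjusted p = 2.25e-05). Tfap2c, a regulator of luminal genes, had 25.8 and 24.5 CPM in the wild-type and 139 and 132 CPM in the A342E line (log2 fold change 2.43 ± 0.20, adjusted p = 3.45e-06). The exception was Klf4, a factor of differentiated epithelium, at 23.7 and 29.8 CPM in the wild-type and 7.08 and 8.66 CPM in the A342E line (log2 fold change -1.76 ± 0.43, adjusted p = 0.00772), which no longer passed without A342E replicate 1 (adjusted p from 0.0203 to 0.076 over the 4 left-out libraries).

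Keratins and junction genes did not share that direction. Of 21 luminal keratins and luminal genes, 4 were higher and 4 lower (median -0.42), and of 27 epithelial adhesion and polarity genes 8 were higher and 5 lower (median 0.23). With a library left out the lower luminal genes were 1 to 2, and the adhesion genes 5 to 6 higher and 3 to 4 lower. Krt8, a luminal keratin, had 639.5 and 928 CPM in the wild-type and 185 and 179 CPM in the A342E line (log2 fold change -2.1 ± 0.71, adjusted p = 0.0407). Krt7, another, had 1095 and 1541 CPM in the wild-type and 338 and 328 CPM in the A342E line (log2 fold change -1.98 ± 0.60, adjusted p = 0.025). Neither call was stable: Krt8 passed in none and Krt7 in 1 of the 4 fits with a library left out (adjusted p from 0.0687 to 0.183 for Krt8 and adjusted p from 0.0467 to 0.135 for Krt7), and Krt8 did not pass with total-count scaling or the replicate block. Foxa1, the pioneer factor of luminal cells, had 0.0983 and 0 CPM in the wild-type and 6.11 and 5.76 CPM in the A342E line (126-fold with a 95% counting interval of 34.7 to 1049, adjusted p = 4.79e-05). Prom1, a membrane glycoprotein of luminal cells, had 33.1 and 26.8 CPM in the wild-type and 0.721 and 0.64 CPM in the A342E line (log2 fold change -5.45 ± 0.67, adjusted p = 7.11e-05). Cldn8, a tight junction claudin, had 0.147 and 0.18 CPM in the wild-type and 31.3 and 29.2 CPM in the A342E line (log2 fold change 7.48 ± 0.63, adjusted p = 4.17e-06), while Cldn1 had 7.33 and 4.8 CPM in the wild-type and 0.89 and 1.36 CPM in the A342E line (log2 fold change -2.42 ± 0.45, adjusted p = 0.00137). F11r, the junctional adhesion molecule A, had 484 and 492 CPM in the wild-type and 240.1 and 240.1 CPM in the A342E line (log2 fold change -1.02 ± 0.17, adjusted p = 0.000635).

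Of 12 desmosome genes, 6 were higher and 3 lower. The higher count was 3 without wild-type replicate 2 and 4 to 5 without another library. Ppl, the plaque protein periplakin, had 4.52 and 4.85 CPM in the wild-type and 30.1 and 31.8 CPM in the A342E line (log2 fold change 2.72 ± 0.17, adjusted p = 6.11e-07), yet the lines were level untreated at 75.2 and 75.8 against 77.4 and 78.2 CPM. Evpl, the related envoplakin, had 0.197 and 0.763 CPM in the wild-type and 15.4 and 16.6 CPM in the A342E line (log2 fold change 5.02 ± 0.96, adjusted p = 0.00165). Dsp, desmoplakin, was lower at 614 and 641 CPM in the wild-type and 247 and 279.9 CPM in the A342E line (log2 fold change -1.25 ± 0.26, adjusted p = 0.00277), and it lies on chromosome 13, described below. Basal and squamous genes split as 9 higher and 6 lower of 24. The lower count was 2 without either A342E library, 3 without wild-type replicate 2 and 5 without wild-type replicate 1, and the higher count stayed at 9. Krt79, a keratin of hair follicle epithelium, had 0 CPM in both libraries of the wild-type and 6.28 and 7.89 CPM in the A342E line (at least 101-fold, adjusted p = 4.12e-06) and was the other way round untreated (11.3 and 9.99 against 3.55 and 3.96 CPM). Krt16, a keratin of activated epidermis, had 16.2 and 27.8 CPM in the wild-type and 3.99 and 2.86 CPM in the A342E line (log2 fold change -2.68 ± 0.58, adjusted p = 0.00348). Oxtr, the oxytocin receptor of myoepithelial cells, had 9.0 and 9.38 CPM in the wild-type and 686 and 665 CPM in the A342E line (log2 fold change 6.2 ± 0.61, adjusted p = 1.36e-05).

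Milk protein genes were compared because the lines differed in them before treatment. Of 8 tested, 3 were higher and 2 lower under TGFb (median 1.67, or 0.20 with genes at 0 counts set to their bound). The response difference passed for 4, all against the A342E line, beside 3.79% of all genes. Csn3, kappa-casein, had 2.02 and 1.98 CPM in the wild-type and 14.8 and 15.8 CPM in the A342E line under TGFb (log2 fold change 2.93 ± 0.32, adjusted p = 2.81e-05) and 0.0382 and 0 against 149 and 158 CPM untreated. Wfdc18, a whey acidic protein family member, had 7.52 and 6.01 CPM in the wild-type and 22.7 and 19.7 CPM in the A342E line (log2 fold change 1.65 ± 0.27, adjusted p = 0.00057) and 2.25 and 2.54 against 383 and 384 CPM untreated.

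Mesenchymal transcription factors were divided between the lines. Of 19 tested, 5 were higher and 8 lower (median -0.91). Zeb1, a repressor of E-cadherin and a driver of the transition, had 28.4 and 24.3 CPM in the wild-type and 4.45 and 5.67 CPM in the A342E line (log2 fold change -2.38 ± 0.39, adjusted p = 0.000563). Hmga2, a chromatin protein that acts downstream of TGFb, had 393 and 321 CPM in the wild-type and 42.5 and 43.8 CPM in the A342E line (log2 fold change -3.05 ± 0.51, adjusted p = 0.000647). Foxf1, a factor of mesoderm, had 55.4 and 56.6 CPM in the wild-type and 1.06 and 0.811 CPM in the A342E line (log2 fold change -5.89 ± 0.54, adjusted p = 7.13e-06). Tbx3, a T-box factor of mammary development, had 16.3 and 16.3 CPM in the wild-type and 0.127 and 0.469 CPM in the A342E line (log2 fold change -5.75 ± 0.48, adjusted p = 4.12e-06). Twist1, a basic helix-loop-helix driver of the transition, went the other way at 0.0492 and 0.0449 CPM in the wild-type and 24.4 and 19.9 CPM in the A342E line (472-fold with a 95% counting interval of 130.3 to 3901, adjusted p = 7.72e-06). Prrx1, a homeobox factor of mesenchyme, had 1.28 and 0.763 CPM in the wild-type and 6.06 and 8.23 CPM in the A342E line (log2 fold change 2.81 ± 0.33, adjusted p = 5.32e-05), having been lower untreated (14 and 10.9 against 2.27 and 3.06 CPM). With a library left out the counts were 3 higher and 5 to 6 lower.

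Genes of the mesenchymal state other than transcription factors leaned to the A342E line, with 12 higher and 3 lower of 23 (median 2.71). Only 0 to 2 were lower with a library left out. Pdgfra, a receptor kinase of fibroblasts, had 8.41 and 7.86 CPM in the wild-type and 84.6 and 83.5 CPM in the A342E line (log2 fold change 3.37 ± 0.32, adjusted p = 8.85e-06). Ddr2, a collagen receptor kinase, had 0.246 and 0.269 CPM in the wild-type and 25.4 and 31.4 CPM in the A342E line (log2 fold change 6.76 ± 0.37, adjusted p = 3.16e-07). Acta2, smooth muscle actin, had 3.44 and 3.86 CPM in the wild-type and 74.3 and 84.5 CPM in the A342E line (log2 fold change 4.44 ± 0.57, adjusted p = 0.000201), and its level in the A342E line was 68.6 and 63.7 CPM without TGFb, while the untreated wild-type libraries had 0. Summed over 12 fibroblast markers, with Pdgfra again among them, the level was 51.0 to 58.6 CPM in the wild-type and 214 to 226 CPM in the A342E line. Lum, Dpt, Thy1 and Pi16 were at 0 in the first and Cd34 and Fap at 0 in the second. Lsp1 made up most of the wild-type sum and was close between the lines (means 41.6 and 46.2 CPM). Untreated the sums were 17.6 to 18.3 CPM in the wild-type and 254.5 to 263 CPM in the A342E line. Whether cells of another type had a part in this was not tested. Tnc, described below, was a lower member of the mesenchymal list. Cd44, a hyaluronan receptor counted with the Wnt target genes and not in this list, was lower at 695 and 610.0 CPM in the wild-type and 122 and 133 CPM in the A342E line (log2 fold change -2.36 ± 0.36, adjusted p = 0.000355).

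Genes of the TGFb pathway itself passed in both directions. Among 13 ligands and latent binders, 4 were higher and 1 lower. Tgfb3 had 54.8 and 59.2 CPM in the wild-type and 1091 and 1072 CPM in the A342E line (log2 fold change 4.25 ± 0.30, adjusted p = 1.26e-06) and Tgfb2 had 6.64 and 6.15 CPM in the wild-type and 45.8 and 46.8 CPM in the A342E line (log2 fold change 2.85 ± 0.22, adjusted p = 2.11e-06). Inhba, the activin A subunit and the lower member, had 438 and 457 CPM in the wild-type and 18.3 and 18.2 CPM in the A342E line (log2 fold change -4.62 ± 0.80, adjusted p = 0.000847); it is a chromosome 13 gene. Of 25 receptors, Smads and repressors, 4 were higher and 6 lower (median 0.01). Over all genes 17.4% were higher and 12.4% lower, so the higher members did not exceed the share over all genes. The higher count was 1 without wild-type replicate 1 and 2 to 3 without another library. Smad3, the transducer of TGFb signals, had 131 and 127 CPM in the wild-type and 56.4 and 61.7 CPM in the A342E line (log2 fold change -1.13 ± 0.21, adjusted p = 0.00125). Smad1, a transducer of BMP signals, had 79.4 and 92.5 CPM in the wild-type and 34 and 35.5 CPM in the A342E line (log2 fold change -1.3 ± 0.18, adjusted p = 0.000156). Tgfbr3, the co-receptor betaglycan, was higher at 3.05 and 3.14 CPM in the wild-type and 20.1 and 19.4 CPM in the A342E line (log2 fold change 2.67 ± 0.37, adjusted p = 0.000156). Both Smads were also lower in untreated A342E cells (log2 fold changes -0.87 and -1.49).

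Known TGFb targets did not follow 1 direction: 6 of 24 were higher and 8 lower (median -0.53, against 0.54 in untreated cells). Without either A342E library the lower count was 5. Ccn2, connective tissue growth factor, had 3475 and 3468 CPM in the wild-type and 715 and 689.6 CPM in the A342E line (log2 fold change -2.31 ± 0.25, adjusted p = 2.97e-05). Untreated, its order was reversed at 157 and 117 against 259 and 259 CPM. Adam12, a membrane metalloproteinase-disintegrin, had 1006 and 968 CPM in the wild-type and 128 and 140.1 CPM in the A342E line (log2 fold change -2.88 ± 0.53, adjusted p = 0.00127). Col1a2, a chain of type I collagen, was higher at 33.9 and 42.8 CPM in the wild-type and 189.8 and 211 CPM in the A342E line (log2 fold change 2.38 ± 0.38, adjusted p = 0.000423). Tagln, the actin-binding protein SM22, had 1.43 and 1.8 CPM in the wild-type and 18.6 and 22.8 CPM in the A342E line (log2 fold change 3.68 ± 0.54, adjusted p = 0.000247). Tnc, tenascin C, had 10840 and 11380 CPM in the wild-type and 2918 and 3176 CPM in the A342E line (log2 fold change -1.87 ± 0.47, adjusted p = 0.00947) and was level untreated (275 and 279.5 against 288 and 263 CPM). Tnc no longer passed without A342E replicate 1 or 2 (adjusted p from 0.0339 to 0.0765).

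BMP ligands, antagonists and Id genes were higher in 9 of 16 and lower in none (median 2.49, or 2.03 with genes at 0 counts at their bound). Gdf5, a BMP-type ligand of joints, had 0 CPM in both libraries of the wild-type and 42 and 40.1 CPM in the A342E line (at least 583-fold, adjusted p = 1.24e-05). Bmp2 had 0 CPM in both libraries of the wild-type and 9.58 and 11.3 CPM in the A342E line (at least 149-fold, adjusted p = 2.13e-05). Id4, an inhibitor of basic helix-loop-helix factors, had 6.24 and 5.97 CPM in the wild-type and 46.9 and 45.3 CPM in the A342E line (log2 fold change 2.92 ± 0.37, adjusted p = 8.81e-05), although untreated it was lower in the A342E line (93.7 and 67.2 against 31.6 and 34.6 CPM). Bambi, a pseudoreceptor that dampens TGFb signals, had 3.79 and 4.22 CPM in the wild-type and 19.9 and 18.6 CPM in the A342E line (log2 fold change 2.27 ± 0.24, adjusted p = 2.18e-05).

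Collagens were mostly higher in the A342E line. Of 28 tested collagen genes, 19 were higher in the A342E line and 3 lower (median 2.47), and 21 and 2 in untreated cells. Without A342E replicate 1 the lower count was 1. Col11a1, a fibrillar collagen chain, had 1228 and 1182 CPM in the wild-type and 11190 and 11030 CPM in the A342E line (log2 fold change 3.2 ± 0.36, adjusted p = 3.78e-05). Col4a1, a chain of basement membrane collagen, had 5.26 and 9.25 CPM in the wild-type and 279 and 296 CPM in the A342E line (log2 fold change 5.31 ± 0.33, adjusted p = 6.36e-07). Col9a1, of cartilage-type collagen IX, had 4.08 and 4.94 CPM in the wild-type and 354 and 338 CPM in the A342E line (log2 fold change 6.26 ± 0.45, adjusted p = 1.39e-06). Col9a2 had 0 and 0.0449 CPM in the wild-type and 181 and 164 CPM in the A342E line (7350-fold with a 95% counting interval of 1319 to 290300, adjusted p = 9.49e-07). Col6a3, of the beaded collagen VI, had 0 and 0.0898 CPM in the wild-type and 159 and 208 CPM in the A342E line (3910-fold with a 95% counting interval of 1082 to 32290, adjusted p = 7.6e-07). Col8a2, of short-chain collagen VIII, had 7.13 and 8.08 CPM in the wild-type and 290.1 and 305 CPM in the A342E line (log2 fold change 5.29 ± 0.45, adjusted p = 4.52e-06). In these 6 genes both A342E libraries lay far above both wild-type libraries.

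The lower collagens included Col5a2, a fibrillar chain that assembles with type I, at 405 and 469.6 CPM in the wild-type and 62.6 and 60.5 CPM in the A342E line (log2 fold change -2.83 ± 0.36, adjusted p = 8e-05). Col7a1, the anchoring fibril collagen, had 44.2 and 97.7 CPM in the wild-type and 3.35 and 4.48 CPM in the A342E line (log2 fold change -4.18 ± 0.92, adjusted p = 0.00393), and did not pass without A342E replicate 1 (adjusted p from 0.00714 to 0.0504). The response difference of collagens passed for 4 genes in favour of the A342E line and 9 against it, beside 5.04% and 3.79% of all genes. Of 21 enzymes that process collagen, 12 were higher and 2 lower (median 1.75). The higher count was 7 without wild-type replicate 1 and 10 to 11 without another library, and the lower count was 1 without A342E replicate 1. Colgalt2, a collagen galactosyltransferase, had 2.06 and 1.66 CPM in the wild-type and 191 and 178 CPM in the A342E line (log2 fold change 6.63 ± 0.34, adjusted p = 4.14e-07). Adamts2, the procollagen N-proteinase, had 3.59 and 4.58 CPM in the wild-type and 164 and 159 CPM in the A342E line (log2 fold change 5.3 ± 0.43, adjusted p = 3.54e-06). P4ha1, a prolyl hydroxylase, had 114 and 108 CPM in the wild-type and 456 and 441 CPM in the A342E line (log2 fold change 2.02 ± 0.20, adjusted p = 1.34e-05).

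Among 28 matrix glycoproteins and proteoglycans, 14 were higher and 5 lower (median 1.59). Fewer (2 to 4) were lower with a library left out. Fbln5, an elastic fibre protein, had 4.87 and 5.43 CPM in the wild-type and 1125 and 1176 CPM in the A342E line (log2 fold change 7.8 ± 0.27, adjusted p = 9.68e-09). Bgn, the proteoglycan biglycan, had 0.344 and 0.135 CPM in the wild-type and 172 and 203 CPM in the A342E line (log2 fold change 9.6 ± 0.47, adjusted p = 6.37e-07). Nid1, a basement membrane linker, had 0.246 and 0.449 CPM in the wild-type and 59.5 and 69.5 CPM in the A342E line (log2 fold change 7.5 ± 0.53, adjusted p = 1.26e-06). Vcan, the large proteoglycan versican and a chromosome 13 gene, was lower at 713 and 572 CPM in the wild-type and 49.8 and 53.7 CPM in the A342E line (log2 fold change -3.63 ± 0.50, adjusted p = 0.00016). Acan, aggrecan, had 50.3 and 51.7 CPM in the wild-type and 7.29 and 8.53 CPM in the A342E line (log2 fold change -2.69 ± 0.23, adjusted p = 5.19e-06), and untreated the gap was far wider (628 and 647 against 0.182 and 0.364 CPM). Of 11 laminin chains, 4 were higher and 3 lower. Lama4 had 2.9 and 3.23 CPM in the wild-type and 74 and 80.7 CPM in the A342E line (log2 fold change 4.65 ± 0.26, adjusted p = 3.98e-07), whereas Lama3 had 71.4 and 60.7 CPM in the wild-type and 21.2 and 23.9 CPM in the A342E line (log2 fold change -1.55 ± 0.30, adjusted p = 0.00188).

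**Figure D4:**
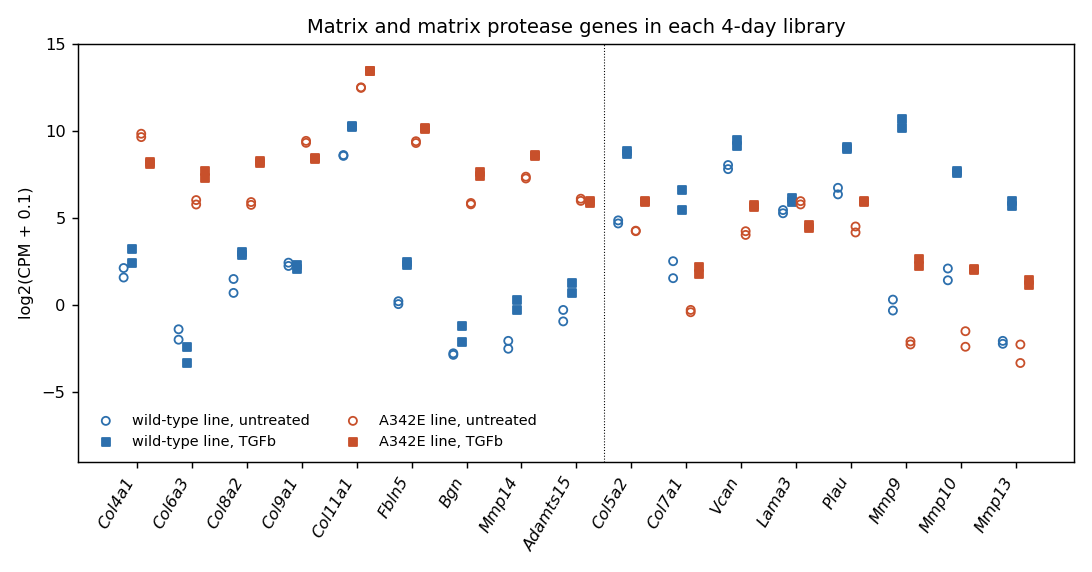
CPM in each 4-day library, on a log2(CPM + 0.1) scale, for 17 matrix and matrix protease genes: circles untreated, squares TGFb, blue the wild-type and red the A342E line. The 9 genes left of the dotted line are higher in the A342E line under TGFb and the 8 to its right lower, and Mmp9, Mmp10 and Mmp13 are lower without than with TGFb in both lines.

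Matrix proteases separated the lines in both directions, with 11 of 34 higher and 12 lower. Mmp9, a secreted gelatinase, had 1171 and 1627 CPM in the wild-type and 4.58 and 6.23 CPM in the A342E line (log2 fold change -8.01 ± 0.71, adjusted p = 6.28e-06). Without TGFb it was near the floor in both lines (1.15 and 0.707 against 0.136 and 0.109 CPM). Mmp10, stromelysin 2, had 209.8 and 195 CPM in the wild-type and 4.03 and 4.05 CPM in the A342E line (log2 fold change -5.64 ± 0.67, adjusted p = 5.34e-05). Mmp13, collagenase 3, had 62.3 and 51.6 CPM in the wild-type and 2.12 and 2.6 CPM in the A342E line (log2 fold change -4.59 ± 0.40, adjusted p = 5.32e-06). Plau, the urokinase plasminogen activator, had 542 and 494 CPM in the wild-type and 61.6 and 64 CPM in the A342E line (log2 fold change -3.04 ± 0.27, adjusted p = 6.28e-06). In the A342E line Mmp14, a membrane-bound collagenase that activates other metalloproteinases, was higher at 0.737 and 1.12 CPM in the wild-type and 373 and 391 CPM in the A342E line (log2 fold change 8.67 ± 0.37, adjusted p = 3.64e-08), and so it was untreated (0.0764 and 0.141 against 166 and 155 CPM). Adamts15, a metalloproteinase that cleaves proteoglycans, had 1.52 and 2.33 CPM in the wild-type and 59.2 and 63.7 CPM in the A342E line (log2 fold change 4.99 ± 0.41, adjusted p = 3.56e-06). Adamts9 had 3.05 and 3.95 CPM in the wild-type and 26.8 and 29 CPM in the A342E line (log2 fold change 2.99 ± 0.24, adjusted p = 3.45e-06). The response difference did not pass for Mmp9 (adjusted p = 0.0686), Mmp10 (adjusted p = 0.591) or Mmp13 (adjusted p = 0.0566).

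Promoter windows of 3 of these metalloproteinases are shown because inducible members of the family are known for an AP-1 site near the start, and the search (TGANTCA, both strands) found 1 in Mmp10, 63 bases before the start, 1 in Mmp13, 35 bases before it, and none in Mmp14. Capitals mark the match.
Mmp10 promoter (chr9:7502092-7502391, plus strand): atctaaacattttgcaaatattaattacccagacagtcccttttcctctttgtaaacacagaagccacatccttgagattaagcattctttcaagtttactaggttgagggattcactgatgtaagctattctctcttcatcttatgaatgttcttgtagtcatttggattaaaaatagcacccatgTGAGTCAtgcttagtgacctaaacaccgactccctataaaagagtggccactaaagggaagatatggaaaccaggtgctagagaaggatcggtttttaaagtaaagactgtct
Mmp13 promoter (chr9:7272264-7272563, plus strand): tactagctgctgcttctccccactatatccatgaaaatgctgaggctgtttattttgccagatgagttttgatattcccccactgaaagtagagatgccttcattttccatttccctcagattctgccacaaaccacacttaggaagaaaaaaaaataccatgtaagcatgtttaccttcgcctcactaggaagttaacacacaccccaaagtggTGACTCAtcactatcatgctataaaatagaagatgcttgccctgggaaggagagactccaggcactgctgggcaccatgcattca
Mmp14 promoter (chr14:54431348-54431647, plus strand): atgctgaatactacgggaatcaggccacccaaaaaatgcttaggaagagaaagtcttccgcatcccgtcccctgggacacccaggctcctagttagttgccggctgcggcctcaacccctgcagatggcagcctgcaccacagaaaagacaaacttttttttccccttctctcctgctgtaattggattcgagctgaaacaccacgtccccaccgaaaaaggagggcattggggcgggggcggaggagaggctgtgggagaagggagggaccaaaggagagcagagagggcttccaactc
The letters were present in 7.81% of all 32851 windows and in 5 of the 11 windows (45.5%) of the 9 Mmp genes of the list that had one. The match in a window says nothing of which factor is bound in these cells.

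Adhesion and contractile genes were divided. Of 19 integrin chains, 4 were higher and 4 lower (median -0.06). With a library left out 1 to 2 were lower. Itga11, a collagen receptor chain, had 0.147 and 0.853 CPM in the wild-type and 366 and 383 CPM in the A342E line (log2 fold change 9.5 ± 0.85, adjusted p = 3.76e-05). Itga6, a laminin receptor chain, had 84 and 75.1 CPM in the wild-type and 442 and 466 CPM in the A342E line (log2 fold change 2.51 ± 0.31, adjusted p = 7.28e-05). Itga3, another laminin receptor chain, had 865 and 1303 CPM in the wild-type and 164 and 175 CPM in the A342E line (log2 fold change -2.68 ± 0.61, adjusted p = 0.00495). Of 23 actin and smooth muscle genes, 9 were higher and 7 lower. The lower count was 3 without A342E replicate 1, 4 without A342E replicate 2 and 5 without either wild-type library. Tagln2, an actin-binding transgelin, had 789 and 965 CPM in the wild-type and 96.2 and 96.8 CPM in the A342E line (log2 fold change -3.18 ± 0.57, adjusted p = 0.00103). Acta1, skeletal muscle actin, had 13.1 and 23 CPM in the wild-type and 0.678 and 0.811 CPM in the A342E line (log2 fold change -4.59 ± 0.98, adjusted p = 0.00338).

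Of 22 YAP and TEAD targets, 9 were lower and 4 higher (median -0.51), while untreated 9 were higher and 4 lower (median 0.38). Nt5e, the ecto-enzyme CD73, had 918 and 788 CPM in the wild-type and 142 and 147 CPM in the A342E line (log2 fold change -2.56 ± 0.33, adjusted p = 9.36e-05). F3, tissue factor, had 86.4 and 69.6 CPM in the wild-type and 23.9 and 24.8 CPM in the A342E line (log2 fold change -1.68 ± 0.28, adjusted p = 0.000605), and its order was reversed untreated (18.8 and 13.7 against 42.2 and 43.3 CPM). With a library left out the lower count was 5 to 7.

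Growth factor genes differed most in the IGF axis. Of 16 IGF ligands, receptors and binding proteins, 10 were higher and 1 lower (median 2.13). Igfbp5, an IGF-binding protein, had 1858 and 1693 CPM in the wild-type and 42000 and 41880 CPM in the A342E line (log2 fold change 4.56 ± 0.53, adjusted p = 4.13e-05); its level in the A342E line was as high without TGFb (43260 and 40850 CPM), and in the wild-type line it was 137 and 132 CPM untreated. Igfbp3, the main IGF carrier of plasma and a TGFb target in many cells, had 3.59 and 3.41 CPM in the wild-type and 799 and 804 CPM in the A342E line (log2 fold change 7.84 ± 0.57, adjusted p = 1.62e-06), up from 176 and 183 CPM untreated in the A342E line. Igfbp2 had 0.147 and 0.0898 CPM in the wild-type and 285 and 219.7 CPM in the A342E line (log2 fold change 11.01 ± 1.17, adjusted p = 2.29e-05). Igf1 had 59.5 and 42.8 CPM in the wild-type and 627 and 570.5 CPM in the A342E line (log2 fold change 3.55 ± 0.28, adjusted p = 8.76e-06), with 0 in both untreated wild-type libraries and 296 and 299.6 CPM in the untreated A342E ones. Igf2 had 9.05 and 7.18 CPM in the wild-type and 186 and 164 CPM in the A342E line (log2 fold change 4.43 ± 0.31, adjusted p = 1.26e-06). The lower member was Igf2bp2, an RNA-binding protein of Igf2 mRNA, at 133 and 128 CPM in the wild-type and 41.9 and 39.6 CPM in the A342E line (log2 fold change -1.68 ± 0.18, adjusted p = 2.85e-05). The count of higher members was 7 to 8 with a library left out.

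Of 23 FGF, PDGF and VEGF ligands and receptors, 6 were higher and 4 lower. Fgfr3 had 0.443 and 0.135 CPM in the wild-type and 34.4 and 34.6 CPM in the A342E line (log2 fold change 6.9 ± 0.52, adjusted p = 1.86e-06). Fgfr2 had 35.2 and 39.9 CPM in the wild-type and 98.3 and 91.7 CPM in the A342E line (log2 fold change 1.34 ± 0.17, adjusted p = 9.57e-05). Vegfa and Vegfc, growth factors of blood and lymph vessels, were lower in the A342E line. Vegfa had 169 and 222 CPM in the wild-type and 34.9 and 43.5 CPM in the A342E line (log2 fold change -2.32 ± 0.41, adjusted p = 0.000912). Vegfc had 67.3 and 54.9 CPM in the wild-type and 10.7 and 10.3 CPM in the A342E line (log2 fold change -2.54 ± 0.35, adjusted p = 0.000154). Endothelial markers summed to 5.56 to 6.38 CPM in the wild-type and 140.3 to 147.6 CPM in the A342E line, nearly all of it Erg, an ETS factor (2.95 and 3.1 against 139.7 and 146 CPM), with Cdh5, Tie1 and Emcn at 0 in the A342E line. Of 14 EGF family genes and ErbB receptors, 2 were higher and 3 lower. The lower count was 1 without A342E replicate 1 or 2 or wild-type replicate 1. Nrg1, a ligand of ErbB3, had 49.4 and 51.5 CPM in the wild-type and 8.65 and 8.58 CPM in the A342E line (log2 fold change -2.55 ± 0.41, adjusted p = 5e-04). Errfi1, a feedback inhibitor of EGF receptors, had 19.4 and 16.1 CPM in the wild-type and 149.6 and 148 CPM in the A342E line (log2 fold change 3.07 ± 0.41, adjusted p = 0.000135), although the lines were close untreated (125 and 87.7 against 96.6 and 73.2 CPM).

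Wnt pathway genes are of interest here because Pygo2 is part of the Wnt enhanceosome. Of the genes of that complex themselves, 4 of 20 were higher and 1 lower (median -0.02; 0.04 and 0.03 with the 2 other scalings tried). The higher count was 2 without wild-type replicate 1, and none was lower with any library left out. Tle1, a Groucho corepressor, had 26.4 and 26.1 CPM in the wild-type and 57.2 and 51.9 CPM in the A342E line (log2 fold change 1.05 ± 0.19, adjusted p = 0.0011). Wnt feedback and target genes were higher in 13 of 21 and lower in 2 (median 1.35), and in 11 and 5 untreated. Axin2, the standard feedback target, had 0.344 and 0.359 CPM in the wild-type and 7.76 and 11.5 CPM in the A342E line (log2 fold change 4.75 ± 0.46, adjusted p = 1.06e-05), and 0.382 and 0.424 against 4.5 and 7.75 CPM untreated. Rnf43, a ligase that removes Frizzled receptors, had 0.541 and 0.808 CPM in the wild-type and 11.8 and 10.9 CPM in the A342E line (log2 fold change 4.06 ± 0.35, adjusted p = 4.59e-06). Nkd1, an antagonist acting on Dishevelled, had 0.0983 and 0.0449 CPM in the wild-type and 8.82 and 7.59 CPM in the A342E line (117-fold with a 95% counting interval of 39.6 to 568, adjusted p = 2.04e-05). Lgr5, an R-spondin receptor, had 0 and 0.0898 CPM in the wild-type and 7.25 and 7.25 CPM in the A342E line (154-fold with a 95% counting interval of 42.5 to 1281, adjusted p = 5.87e-05). In all 4 both A342E libraries lay above both wild-type ones with and without TGFb. Cd44 and Ccnd1, described above, were the 2 lower members. The higher count was 8 to 12 with a library left out.

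Of 9 Wnt ligands tested, 2 were higher and 2 lower. Wnt5a, a ligand of beta-catenin-independent signals, had 0.688 and 0.584 CPM in the wild-type and 57.2 and 63.9 CPM in the A342E line (log2 fold change 6.56 ± 0.52, adjusted p = 2.9e-06). Wnt5b had 14.8 and 15 CPM in the wild-type and 128 and 122 CPM in the A342E line (log2 fold change 3.07 ± 0.23, adjusted p = 1.85e-06). Wnt11 had 14.5 and 25.2 CPM in the wild-type and 1.7 and 1.49 CPM in the A342E line (log2 fold change -3.63 ± 0.69, adjusted p = 0.00152). Of 19 receptors and secreted antagonists, 7 were higher and none lower (median 0.88), Wif1, a secreted Wnt inhibitor, at 0 CPM in both libraries of the wild-type and 26 and 23.1 CPM in the A342E line (at least 349-fold, adjusted p = 1.41e-05) and Fzd7, a receptor, at 35.5 and 34.5 CPM in the wild-type and 126 and 124 CPM in the A342E line (log2 fold change 1.84 ± 0.22, adjusted p = 4.98e-05). H3K4 methyltransferase complexes and readers, which write and bind the mark that the Pygo2 PHD finger contacts, were counted together with H3K4 demethylases. Of 23 genes in this list, 4 passed (17.4%, beside 29.7% of all genes). Leaving out a library gave 1 to 2 higher and 1 to 2 lower. Kdm1a, an H3K4 demethylase, had 168 and 154 CPM in the wild-type and 76.2 and 82 CPM in the A342E line (log2 fold change -1.02 ± 0.17, adjusted p = 0.000509). Kdm5c, another, had 161 and 171 CPM in the wild-type and 326 and 341 CPM in the A342E line (log2 fold change 1.0 ± 0.20, adjusted p = 0.00218).

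Notch genes split as 3 higher and 3 lower of 16. The lower count was 1 without A342E replicate 1 or 2 or wild-type replicate 2. Hey1, a Notch target, had 2.21 and 3.19 CPM in the wild-type and 165 and 151 CPM in the A342E line (log2 fold change 5.86 ± 0.25, adjusted p = 3.64e-08). Dll1, a ligand, had 13.2 and 14.7 against 115 and 85.4 CPM (log2 fold change 2.84 ± 0.31, adjusted p = 2.57e-05). Jag1, another ligand, had 370.5 and 383 against 58.9 and 62.3 CPM (log2 fold change -2.64 ± 0.47, adjusted p = 0.00105). Semaphorins, ephrins and plexins split as 9 and 9 of 36. Without A342E replicate 1 the lower count was 5. Epha7, an ephrin receptor, had 94.2 and 78.1 CPM in the wild-type and 4.41 and 4.95 CPM in the A342E line (log2 fold change -4.2 ± 0.71, adjusted p = 0.000662), and untreated it did not differ to the threshold (0.803 and 0.66 against 3.46 and 2.15 CPM). Of 25 chemokines and cytokines, 8 were higher and 7 lower. Cxcl16, a chemokine for CXCR6, had 134 and 145 CPM in the wild-type and 3.18 and 3.33 CPM in the A342E line (log2 fold change -5.42 ± 0.43, adjusted p = 2.9e-06). Ptgs2, the prostaglandin synthase COX-2, had 1554 and 1443 CPM in the wild-type and 75.9 and 86.7 CPM in the A342E line (log2 fold change -4.2 ± 0.59, adjusted p = 0.000183). Ccl2, the monocyte chemokine, had 0 and 0.0449 CPM in the wild-type and 12.9 and 13.7 CPM in the A342E line (568-fold with a 95% counting interval of 102 to 22480, adjusted p = 2.48e-05). Interferon response and antigen presentation genes were at 3 higher and 5 lower of 28. Without wild-type replicate 1 or either A342E library, 2 to 3 were lower. Oasl2, an interferon-induced gene, had 3.79 and 3.86 CPM in the wild-type and 11.3 and 11.8 CPM in the A342E line (log2 fold change 1.59 ± 0.28, adjusted p = 0.00086).

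Of 27 glycolysis and hypoxia response genes, 15 were higher and 2 lower (median 0.82, untreated 0.08). Aldoc, a brain-type aldolase, had 0.295 and 0.539 CPM in the wild-type and 308 and 299.8 CPM in the A342E line (log2 fold change 9.48 ± 0.54, adjusted p = 4.14e-07). Car9, the hypoxia-induced carbonic anhydrase, had 1.97 and 1.93 CPM in the wild-type and 92.5 and 91.2 CPM in the A342E line (log2 fold change 5.55 ± 0.36, adjusted p = 7.9e-07). Both genes were also higher in untreated A342E cells. Aldoc had 0.879 and 0.896 against 351 and 320 CPM there, and Car9 8.6 and 9.19 against 71 and 68.2 CPM. Vegfa, described above, was 1 of the 2 lower members. Of 27 cholesterol and fatty acid synthesis genes, 5 were higher and 4 lower. With any library left out 2 were higher and 2 lower. Scd1, a fatty acid desaturase, had 112 and 102 CPM in the wild-type and 917 and 985 CPM in the A342E line (log2 fold change 3.16 ± 0.32, adjusted p = 1.73e-05), and the lines were level untreated (739.7 and 757 against 682 and 725 CPM). Of 30 ribosomal protein genes, which share reads with pseudogene copies and are uncertain for that reason, 1 passed, and none without A342E replicate 2. With a library left out the glycolysis and hypoxia counts were 10 to 12 higher and 1 lower.

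Vdr, the vitamin D receptor, and Ctsd, the lysosomal protease cathepsin D, were among the passing genes with the most reads. Vdr had 179.8 and 169 CPM in the wild-type and 1921 and 1986 CPM in the A342E line (log2 fold change 3.49 ± 0.45, adjusted p = 8.99e-05). Ctsd had 3000 and 3421 CPM in the wild-type and 10530 and 10380 CPM in the A342E line (log2 fold change 1.7 ± 0.37, adjusted p = 0.00359). Both were also higher in untreated A342E cells.

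In some genes the order of the lines turned with TGFb and passed in both conditions. Arg1, arginase, had 2.95 and 3.05 CPM in the wild-type and 23.1 and 22.6 CPM in the A342E line under TGFb (log2 fold change 2.93 ± 0.36, adjusted p = 7.41e-05) and 33.3 and 27.2 against 5.68 and 4.84 CPM untreated. Rgs2, a regulator of G protein signals, had 3.93 and 3.46 CPM in the wild-type and 27.2 and 23 CPM in the A342E line (log2 fold change 2.76 ± 0.45, adjusted p = 0.000563) and 75.8 and 65.7 against 11.1 and 9.17 CPM untreated. In both genes the wild-type values were lower with TGFb than without, and the A342E values were higher. Aqp1, a water channel, had 0.0492 and 0.0898 CPM in the wild-type and 6.53 and 6.87 CPM in the A342E line (95.2-fold with a 95% counting interval of 32.3 to 464, adjusted p = 5.83e-05) and 8.06 and 10 against 2.0 and 1.75 CPM untreated. In the other direction, Masp1, a serine protease of the lectin pathway of complement, had 87.6 and 91.3 CPM in the wild-type and 6.02 and 6.96 CPM in the A342E line (log2 fold change -3.78 ± 0.55, adjusted p = 0.000242) and 0.0382 and 0 against 0.864 and 0.618 CPM untreated. Myrip, which links myosin to vesicles, had 6.1 and 8.21 CPM in the wild-type and 0.297 and 0.299 CPM in the A342E line (log2 fold change -4.56 ± 0.47, adjusted p = 1.77e-05) and 0.0764 and 0.0471 against 0.455 and 0.837 CPM untreated. Dio2, which makes active thyroid hormone, was close untreated (3.44 and 3.02 against 2.5 and 3.71 CPM) and apart under TGFb at 0.0983 and 0.0449 CPM in the wild-type and 157 and 172 CPM in the A342E line (2338-fold with a 95% counting interval of 799.7 to 11340, adjusted p = 0.000109).

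Passing genes were unevenly spread over chromosomes. On chromosome 13, 228 of 488 tested genes (46.7%) were lower in the A342E line and 45 (9.22%) higher, against 11% and 17.7% on the other chromosomes. The median log2 fold change there was -0.83 (quartiles -1.24 and -0.27) under TGFb, -0.98 in untreated 4-day and -1.15 in untreated 3-day cells, and 0.01 elsewhere under TGFb. The median TGFb response of chromosome 13 genes was 0.02 in the wild-type and 0.08 in the A342E line. In windows of 10 Mb with at least 20 tested genes (222 over the genome), 11 had a median of -0.5 or lower in both conditions, and 8 of these lay on chromosome 13, where the windows from 0 to 30 Mb were not low. On chromosome 19 the windows from 10 to 20 Mb and from 20 to 30 Mb stood at 0.65 and 0.97, and were the 2 windows at 0.5 or higher in both conditions. Whether the lines differ in DNA copy number there was not tested. Cks2 lies in the window from 50 to 60 Mb, where the median was -1.08 and 66.7% of 66 genes were lower. Inhba, Vcan, Dsp and Mak, a kinase at 5.55 and 5.88 CPM in the wild-type and 0 CPM in both libraries of the A342E line, are the chromosome 13 genes named here as lower, and Nid1 and Id4 are named as higher. Inhba lies in the window from 10 to 20 Mb (median -0.37), which was not among the low ones. Without the genes of chromosome 13, 3626 genes passed.

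**Figure D5:**
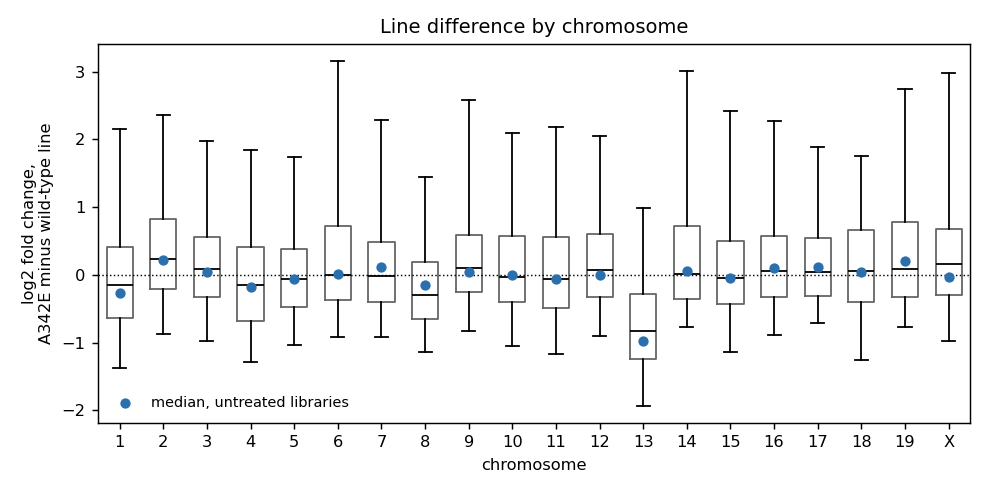
Log2 fold change of the A342E minus the wild-type line under TGFb by chromosome: box from the lower to the upper quartile with the median as a black line, whiskers from the 10th to the 90th percentile of the genes tested, and blue points the median in untreated 4-day libraries. Chromosome 13 stands at -0.83 under TGFb and -0.98 untreated, below the other chromosomes.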

How the data were processed

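RNA of 2 cell lines was sequenced in 16 libraries, of which 4 are compared here. Per the labels' protocols, DNase-treated RNA went into stranded mRNA libraries that a NextSeq read from 1 end. STAR and mm10 are named in the submitters' processing notes. The STAR version, the counter and its gene models were not given in the sources used here. Whole-number counts were deposited by the authors per gene, without normalization, for 19665 Entrez IDs, and the 16 columns matched the samples' titles. NCBI's gene table for GRCm38.p6 named 19613 of the IDs.

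Genes that reached 1 CPM in 2 or more libraries (13172) were tested with edgeR 4.0.16 (R 4.3.3): TMM scaling, 1 mean per group over all 16 libraries (8 residual degrees of freedom), glmQLFit and glmQLFTest. The SE is the log2 fold change divided by the square root of F. The contrasts were the line difference under TGFb, that in untreated 4-day cells, and their difference. A group with no count was set to 3 counts for a lower bound of a fold, and with 1 to 3 counts a ratio is given with its 95% interval, which covers counting error only. No pair of replicates agreed within sampling noise (chi-square per degree of freedom 4.956 to 212.7). The 44 lists held 947 symbols, 929 of them in the table, and 798 members were tested. List counts and medians are descriptions. A list's median with genes at 0 counts set to their bound is given where it differs. The members and the lists were chosen with earlier results of these data known. Named genes are Pygo2, the 10 largest and 10 smallest changes, the 5 with most reads in each direction, up to 4 passing members per list and direction by p, and up to 5 per direction by response difference or turned order, where the higher group mean reached 5 CPM; some are not reported here. Cks2 was added after its value was seen. Promoter windows are RefSeq's. Alternatives used DESeq2 1.42.0, limma 3.58.1, other scalings and filters, fewer libraries, a replicate block and a GC correction, which covered 96.4% of genes.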

Additional observations from a re-analysis of the deposited data

Results flagged for a closer look

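Of the 146 genes named in the report, 58 had a line difference under TGFb that differed from that in untreated cells by edgeR's quasi-likelihood test of the response difference (A342E minus wild-type response on the log2 scale, Benjamini-Hochberg adjusted over 13172 genes). It was positive for 32 and negative for 26. The 146 genes leave out those given only as cell type markers. With each of the 8 libraries of the 4-day experiment left out in turn, 47 of the 58 passed in every fit that tested them, which was 8 fits for 46 genes and 6 for Myrip. Itga6, Fzd7, Bambi, Erg and Acta1 passed in none of these 8 fits. Grhl1 passed in 3, and Krt16 (lost without untreated A342E replicate 2), Fbln5 and Pdgfra (without untreated wild-type replicate 2), Lama3 (without TGFb-treated A342E replicate 1) and Col5a2 (without untreated wild-type replicate 1) in 7.

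Of the S phase and mitosis genes named, 8 passed on the positive side, at 3.43 for E2f8, 3.42 for Mcm10, 3.26 for Aurkb, 3.04 for Cdc6, 2.91 for Clspn, 2.86 for Kif20a, 2.8 for Cenpa and 2.78 for Bub1b, with adjusted p from 0.000121 to 0.000489. Cdkn2c, a CDK inhibitor, went with them at 3.52 (adjusted p = 8.49e-05). Transcription factors on this side were Prrx1 (5.03), Ehf (4.73), Id4 (4.2), Klf4 (3.44), Hey1 (3.13), Grhl1 (1.94) and Tfap2c (1.72).

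Other genes with a positive difference were Acan (8.44, adjusted p = 6.23e-07), Rgs2 (5.56), Arg1 (5.45), Krt16 (4.2), Igfbp3 (3.99), Errfi1 (3.39), Nt5e (3.37), Scd1 (3.25), Ppl (2.68), Car9 (2.59), Oasl2 (2.53), Itga6 (1.53) and Fzd7 (1.33). For Acan this means that the untreated gap of 628 and 647 against 0.182 and 0.364 CPM had narrowed.

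On the negative side, genes that were higher in the A342E line under TGFb had a larger line difference untreated. They were Wnt5b (-3.89, adjusted p = 3.66e-05), Adamts2 (-4.27), Igfbp5 (-3.73), Colgalt2 (-2.95), Igf2 (-2.83), Col4a1 (-2.6), Fgfr2 (-2.3), Lama4 (-2.1), Pdgfra (-2.04), Tgfb2 (-2.0), Fbln5 (-1.54), Bambi (-1.32) and Wfdc18 (-5.67). Genes lower in the A342E line under TGFb on this side were Epha7 (-6.12), Acta1 (-4.85), Cldn1 (-3.37), Ccn2 (-3.22), F3 (-3.08), Col5a2 (-2.31) and Lama3 (-2.06).

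In 9 genes a group had at most 3 counts over both libraries, so the fitted difference depends on the prior count and gives only the direction. These were Krt79 (11.88), Dio2 (11.14), Aqp1 (8.74), Igf1 (-12.22), Csn3 (-9.57), Acta2 (-9.16), Masp1 (-8.6), Myrip (-7.83) and Erg (-3.85).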

How the results depend on the processing

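The 3916 genes that passed under TGFb became 1962 when tested against a log2 fold change of 1, 7042 with only the 8 libraries of the 4-day experiment, 6491 with the 4 TGFb libraries alone and 6280 with a correction for GC content and length, and 2581 to 2707 with 1 library left out. Of the 7042, 3838 were among the 3916. For the untreated comparison (4583) the same settings gave 2290, 7828 and 7032, and 3098 to 3382 with a library left out; for the response difference (1163) they gave 562, 3890 and 2582, and 637 to 717. Other scalings, filters, DESeq2, limma and the removal of chromosome 13 kept the counts within 1.5 times of these. The replicate numbers did not pair the lines: same-numbered TGFb libraries had deviations that correlated at -0.057. Within a line, same-numbered TGFb and untreated libraries correlated at 0.563 (wild-type) and 0.202 (A342E). A replicate block within each line, tried after seeing the data, gave 1784 calls of the response difference, or 7901 on the 8 libraries, and all 58 genes listed above passed in both. With 1 replicate block over both lines the counts were 3874 under TGFb, 4518 untreated and 1143 for the response difference, and with the block on the 8 libraries 7142, 7944 and 3952. Untreated libraries correlated at -0.276, and a crossed pairing, tried after seeing the data, gave 8889 calls. No named gene changed direction in any setting, and of the 243 that passed by the naming rule 196 passed with every library left out and 172 in every fit. In simulated counts for the TGFb comparison (13053 genes), 100 genes were changed 2-fold and 100 changed 4-fold. The test found 18% of the first and 89% of the second. Far more genes passed in the real data, which makes the adjustment of p less strict, so these shares do not carry over. How many small differences were missed in the real data was not tested. With 2 libraries per line and 1 line per genotype, no test here separates genotype from line.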

Other observations

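A few gene groups had no place in the account above. Of 8 Hox genes tested, which pattern the body axis, 4 were higher and 1 lower in the A342E line under TGFb (median 1.26), and 6 were higher and none lower untreated (median 1.45). Without wild-type replicate 2 the TGFb counts were 2 higher and none lower, and without A342E replicate 2 none was lower. Adipocyte markers summed to 1.03 to 1.39 CPM in the wild-type and 3.60 to 3.88 CPM in the A342E line, with Adipoq and Cidec at 0 in both.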
